A study of Mus musculus with 6 samples.

Results

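The regions described here are the narrow autosomal H3K27ac peaks of untreated mouse embryonic stem cells (ESCs), chosen by their width alone: peaks on chromosomes 1 to 19 of the mm10 genome whose end minus start was below 1000 bp. They numbered 3186 of the 22518 autosomal peaks, or 14.1% (95% Wilson interval 13.7 to 14.6), in a list of 22973 peaks in all. The study asked whether histone acetylation persists when transcription is stopped. It profiled H3K27ac by ChIP-seq in E14Tg2A ESCs carrying Rosa26-Cre and Oct4-IRES-Puro, a single established line grown with LIF and the inhibitors PD0325901 and CT-99021, with human HEK293T chromatin added as a spike-in. The 3 groups held 2 replicates each and were collected after 120 min: DMSO control, NVP-2 at 100 nM (a CDK9 inhibitor that blocks the release of paused RNA polymerase II) and actinomycin D at 800 nM by the sample labels (a DNA intercalator that blocks transcription). Only the control peak list, pooled over both control replicates, was used, and the peaks of the treated cells were not analysed here.

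H3K27ac is the acetylation of lysine 27 on histone H3, laid down mainly by the acetyltransferases CBP and p300. It lies on the nucleosomes that flank active promoters and enhancers, while the factor-bound or start-site DNA between them is often free of nucleosomes. A stretch of the mark that covers few nucleosomes is therefore called as a short peak, and a dense cluster of regulatory elements as a long one. Many mammalian promoters lie in CpG islands, which are rich in G, C and the dinucleotide CpG, whereas most enhancers are not.

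The list holds only positions, without heights, scores or read counts, so a narrow peak is described here by where it lay and by the sequence under it. There was 1 list and hence no spread between replicates. The intervals given are at the 95% level, cover counting error only, and treat peaks as separate draws, which neighbouring peaks are not. No p-value was computed. Because width chose the members, widths are a description, and 2 sets were used for comparison: all 19332 wider autosomal peaks, and the 7933 peaks of 1000 to 1999 bp, the nearest in width. Of 24 promoters of pluripotency factors, which the labelled cell type expresses, 19 (79.2%) carried a peak, against 43.4% of all autosomal promoters and 50.1% of protein-coding ones.

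A few sequences show what lay under narrow peaks. They are reference sequence of mm10 (GRCm38), printed 5′ to 3′ in lower case with every CpG in capitals. The opening pair are promoters in which the annotated transcription start site (TSS) fell at the middle of a narrow peak, shown on the gene's strand up to base 30 of the transcript. Pigt (chr2:164497250-164497549, plus strand) encodes a subunit of the transamidase that attaches GPI anchors to proteins, and its TSS is base 271 of the stretch. Ube2l6 (chr2:84798558-84798857, plus strand) encodes a ubiquitin-conjugating enzyme that also serves the ubiquitin-like protein ISG15, and its TSS is again base 271. The Pigt stretch held 24 CpGs and the Ube2l6 stretch 15.
Pigt: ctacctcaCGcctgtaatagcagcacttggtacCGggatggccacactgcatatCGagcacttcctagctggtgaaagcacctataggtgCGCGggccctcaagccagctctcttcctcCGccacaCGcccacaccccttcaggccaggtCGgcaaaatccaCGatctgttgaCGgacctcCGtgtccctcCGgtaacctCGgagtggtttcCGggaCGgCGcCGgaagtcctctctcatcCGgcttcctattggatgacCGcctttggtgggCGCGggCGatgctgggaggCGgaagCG
Ube2l6: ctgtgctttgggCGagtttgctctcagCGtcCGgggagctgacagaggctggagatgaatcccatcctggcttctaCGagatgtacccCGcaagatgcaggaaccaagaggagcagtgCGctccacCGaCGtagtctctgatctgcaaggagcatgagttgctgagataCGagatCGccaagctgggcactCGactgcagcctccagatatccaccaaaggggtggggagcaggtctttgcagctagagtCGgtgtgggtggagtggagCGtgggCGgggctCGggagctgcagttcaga

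The next pair show the more usual place of a narrow promoter peak, just inside the gene. They were picked after the values were seen, as the genes nearest the median distance given below among the listed genes other than Rik and Gm entries, passing over genes where the 300 bases held more than 30 bases of untranslated region. Mrpl22 (chr11:58171823-58172122, plus strand) encodes a protein of the large mitochondrial ribosomal subunit, and Zfp72 (chr13:74390374-74390673, minus strand) a zinc finger protein. In both, the middle of the peak lay 312 bp downstream of the TSS, and the 300 bases around it held 17 CpGs in Mrpl22 and 5 in Zfp72.
Mrpl22: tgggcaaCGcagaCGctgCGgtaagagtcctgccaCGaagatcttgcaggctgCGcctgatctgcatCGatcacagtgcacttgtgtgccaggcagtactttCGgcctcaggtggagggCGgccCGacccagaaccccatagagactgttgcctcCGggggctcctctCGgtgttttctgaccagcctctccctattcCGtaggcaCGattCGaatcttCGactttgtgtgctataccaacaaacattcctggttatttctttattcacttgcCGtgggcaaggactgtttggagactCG
Zfp72: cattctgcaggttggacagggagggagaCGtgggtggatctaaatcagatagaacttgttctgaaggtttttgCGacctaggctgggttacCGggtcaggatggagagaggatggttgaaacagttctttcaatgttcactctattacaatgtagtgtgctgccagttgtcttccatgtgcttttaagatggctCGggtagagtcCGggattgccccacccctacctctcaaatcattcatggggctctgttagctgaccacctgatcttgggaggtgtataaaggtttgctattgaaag

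The extremes of length and composition are shown on the plus strand. The narrowest member spanned 51 bp of intron 3 of Ntn1 (chr11:68351980-68352030), the gene of the axon guidance factor netrin-1. The next narrowest spanned 55 bp of intron 10 of Zfp541 (chr7:16088721-16088775), and neither held a CpG. The member with the highest GC content, 85.3% over 300 bp, was intergenic, 66.5 kb downstream of the TSS of Pip4p2, a phosphoinositide phosphatase gene (chr4:14930419-14930718). The member with the lowest GC content, 29.3%, was also intergenic, 21.5 kb upstream of the TSS of Gm19684 (chr17:36100075-36100374). The Pip4p2 window held 60 CpGs, against 2 in the Gm19684 window.
Ntn1: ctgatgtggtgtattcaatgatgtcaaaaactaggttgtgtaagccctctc
Zfp541: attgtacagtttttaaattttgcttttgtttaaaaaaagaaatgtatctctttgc
Pip4p2: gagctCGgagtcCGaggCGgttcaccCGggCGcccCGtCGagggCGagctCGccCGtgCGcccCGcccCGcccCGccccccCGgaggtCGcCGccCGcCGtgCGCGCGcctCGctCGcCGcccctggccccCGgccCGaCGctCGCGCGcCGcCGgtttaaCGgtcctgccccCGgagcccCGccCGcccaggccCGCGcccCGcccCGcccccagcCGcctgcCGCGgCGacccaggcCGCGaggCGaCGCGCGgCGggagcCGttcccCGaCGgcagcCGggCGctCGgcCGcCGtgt
Gm19684: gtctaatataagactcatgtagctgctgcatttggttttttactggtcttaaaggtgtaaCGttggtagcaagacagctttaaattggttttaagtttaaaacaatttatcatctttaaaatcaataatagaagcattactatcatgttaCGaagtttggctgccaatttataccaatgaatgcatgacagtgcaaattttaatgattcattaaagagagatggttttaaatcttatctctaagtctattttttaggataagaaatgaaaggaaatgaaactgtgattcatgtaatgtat

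The median narrow peak measured 651 bp (quartiles 460 and 825 bp), the shortest 51 bp and the longest 999 bp. Only 122 were below 200 bp, which is little more than the DNA of a single nucleosome, and 970 were below 500 bp. The limit of 1000 bp fell on no break in the distribution: the 3 members just inside it measured 999, 999 and 999 bp, and the 3 peaks just outside it 1000, 1000 and 1000 bp. Peak numbers rose from 24 below 100 bp to 415 at 400 to 499 bp, stayed between 415 and 469 per 100 bp up to the limit, rose again from 520 to 1191 between 1000 and 1999 bp, and then dropped to 431 between 2000 and 2099 bp. Although they made up 14.1% of autosomal peaks, narrow peaks covered only 2.02 Mb, or 2.37% of the length under autosomal peaks. On the sex chromosomes 1 of 455 peaks was below 1000 bp, and it lay on X.

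**Figure D1:**
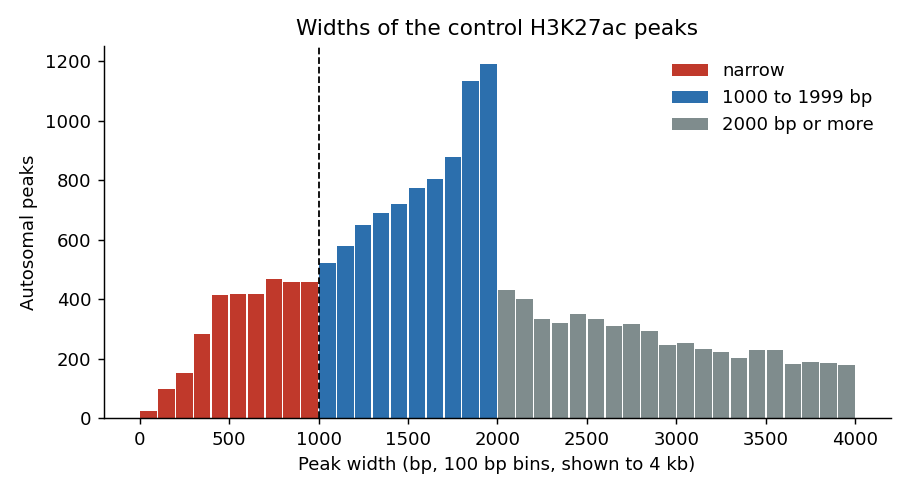
Number of autosomal H3K27ac peaks (y axis) in 100 bp bins of width (x axis, bp, shown to 4000 bp), with the limit of 1000 bp as a dashed line. Counts stayed between 415 and 469 from 400 bp to the limit, then reached 1191 at 1900 to 1999 bp and fell to 431 in the next bin.

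Each peak was placed by its midpoint: promoter where it lay within 1 kb of the TSS of a gene's longest isoform, gene body where it lay elsewhere between the ends of a gene, and intergenic otherwise. Protein-coding and lincRNA genes were used. Narrow peaks were divided almost evenly, with 1106 in promoters (34.7%, 33.1 to 36.4), 1149 in gene bodies (36.1%, 34.4 to 37.7) and 931 between genes (29.2%, 27.7 to 30.8). The promoter share was 4.59 percentage points above the 30.1% of all wider peaks (interval 2.83 to 6.38), yet below the 43.3% of peaks of 1000 to 1999 bp, by a difference of -8.56 points (-10.5 to -6.57). It was above that of wider peaks on 16 of 19 chromosomes and below that of the next wider set on 17 of 19. The sign against all wider peaks depended on the placing rule: with any overlap in place of the midpoint, 35.3% of narrow and 43.1% of wider peaks touched a promoter window, a difference of -7.83 points.

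Both signs appear in the shares by width. Within the narrow peaks the promoter share rose steadily, from 14.8% below 200 bp (9.54 to 22.1) through 21.7% at 200 to 399 bp, 31.1% at 400 to 599 bp and 40.7% at 600 to 799 bp to 41.0% at 800 to 999 bp. Just above the limit it was 38.1%, at 1000 to 1199 bp. It peaked at 46.2% at 1800 to 1999 bp and fell to 6.64% in peaks of 10000 bp or more. The shortest peaks were mostly away from promoters: 45.9% of those below 200 bp lay in gene bodies and 39.3% between genes.

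**Figure D2:**
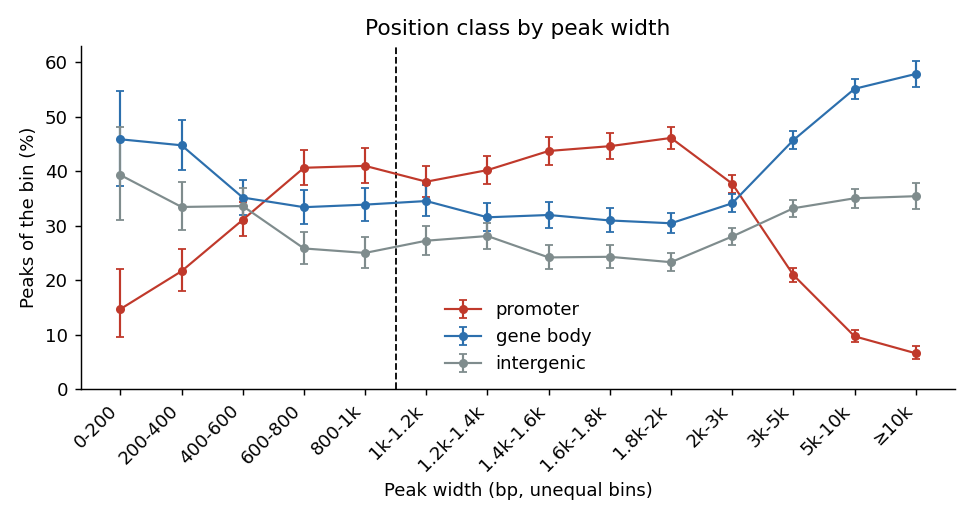
Share of peaks (y axis, %) in promoters, gene bodies and intergenic sequence for each width bin (x axis, bp, bins of unequal size), with 95% Wilson intervals as bars and the limit of 1000 bp dashed. The promoter share rose from 14.8% below 200 bp to 41.0% at 800 to 999 bp and was 38.1% at 1000 to 1199 bp. It reached 46.2% at 1800 to 1999 bp and fell to 6.64% in the longest peaks.

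Within promoters, narrow peaks lay mostly inside the transcribed region. Counting along the gene, the median midpoint was 316.5 bp downstream of the TSS (307 to 330, n = 1106), the quartiles were 183 and 410 bp downstream, and 968 peaks (87.5%) had their midpoint downstream. Of all narrow promoter peaks 69.5% (66.8 to 72.2) had a midpoint between 200 and 600 bp into the gene, against 34.3% (32.7 to 35.9) of promoter peaks of 1000 to 1999 bp. Those wider promoter peaks had their median midpoint at 144 bp downstream (137 to 155, n = 3433). The median was downstream on all 19 chromosomes. Measured to the nearest TSS of any annotated isoform, it was 260 bp.

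The offset did not simply grow with width. Narrow promoter peaks below 400 bp had a median of 249.5 bp (219 to 286), those of 400 to 699 bp 304 bp (292 to 316) and those of 700 to 999 bp 355 bp (343 to 373). Above the limit the median dropped to 170 bp at 1000 to 1499 bp (155 to 186) and 131 bp at 1500 to 1999 bp (120 to 141). The edges show the same arrangement. The upstream edge of narrow promoter peaks had its median at -12 bp (-24 to -3), at the TSS itself, and the downstream edge at 633.5 bp (618 to 653). In promoter peaks of 1000 to 1999 bp the edges were at -644 and 955 bp, on both sides of the TSS.

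In all, 564 narrow promoter peaks (51.0%) contained the TSS, 499 (45.1%, 42.2 to 48.1) lay wholly downstream of it and 43 (3.89%) wholly upstream. In the next wider set 95.9% contained the TSS and 3.85% lay wholly downstream, a comparison that width itself favours. Another gene's TSS on the opposite strand lay within 1 kb upstream of the TSS at 47 narrow promoter peaks (4.25%, 3.21 to 5.61), fewer than the 9.58% (8.64 to 10.6) of the next wider set and the 11.2% of all wider promoter peaks. With genes that had another TSS within 2 kb left out, the median offset of narrow peaks was 319 bp.

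**Figure D3:**
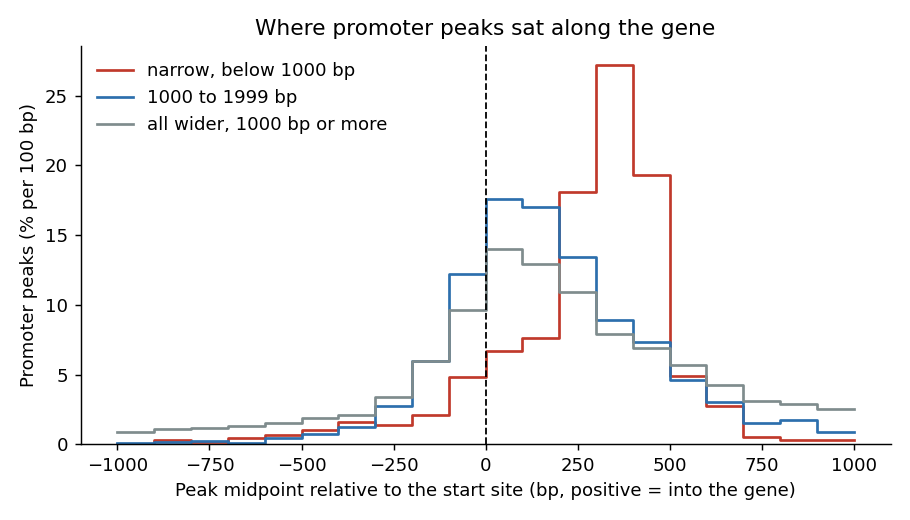
Share of promoter peaks (y axis, % per 100 bp bin) by the distance of their midpoint from the TSS (x axis, bp, positive into the gene) for narrow peaks, peaks of 1000 to 1999 bp and all wider peaks. Narrow peaks gathered at 200 to 500 bp downstream with a median of 316.5 bp, whereas peaks of 1000 to 1999 bp were centred nearer the TSS, at 144 bp.

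Some narrow peaks were centred almost on a TSS. The 10 protein-coding genes whose TSS lay nearest the midpoint of a narrow peak were ranked by distance in either direction. Their distances, without sign, ran from 0 bp in Pigt and 1 bp in Ube2l6 to 8 bp in Uggt2, which encodes a glucosyltransferase that checks glycoprotein folding. Between them were Ccnjl (a cyclin J-like protein), B9d2 (a protein of the ciliary transition zone), Tlcd2, Zbtb42, Col4a2 (a chain of basement membrane collagen), Zfp934 and Rps6ka4 (a nuclear kinase of histone H3). Their peaks were 471 bp wide in Zbtb42 to 993 bp in Col4a2, and the GC content around the midpoint ran from 55.0% in Zfp934 to 78.0% in Ccnjl. At the short end, Rtn4rl1 (a Nogo receptor-like protein) had a promoter peak of 59 bp at 295 bp into the gene, and Sept5 (a septin) one of 60 bp at 268 bp.

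A promoter was called marked where any peak overlapped the 1 kb on either side of its TSS. Of 11263 marked autosomal promoters, narrow peaks alone marked 1205, or 10.7% (10.1 to 11.3), and the other 10058 were marked by wider peaks. The share was 5.80% where the TSS itself had to lie in the peak, and 5.96% and 2.15% with narrow taken as below 750 or below 500 bp. No promoter window could touch both kinds, since peaks within 2 kb of each other had been merged and the smallest gap of a narrow peak to a neighbour was 2003 bp. Protein-coding promoters were marked by narrow peaks alone in 1133 of 10381 cases (10.9%, 10.3 to 11.5) and lincRNA promoters in 72 of 882 (8.16%, 6.53 to 10.2). The gene lists below are read against that 10.7%, as counts without a test. Each peak can serve several promoters, as 1 peak of 929 bp did for Zfp934 and Zfp935.

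In several lists narrow peaks alone marked no promoter. The count was 0 of 19 marked pluripotency genes, 0 of 9 formative and primed genes, 0 of 13 RNA polymerase II subunits, 0 of 19 nucleoporins and 0 of 57 canonical histone genes. The Wilson interval of a count of 0 reached 6.31% for the histone genes. It reached 16.8% for the pluripotency genes and for the nucleoporins. For the polymerase subunits the upper limit was 22.8%, and for the formative and primed genes 29.9%. Except for the histone genes, these upper limits lay above the 10.7%. The limits treat promoters as separate draws, although 1 peak can serve several promoters. Of 78 marked cytosolic ribosomal protein genes only Rpl39l, a paralogue of Rpl39, was marked by a narrow peak alone (1.28%, 0.227 to 6.91). Its peak of 999 bp was at the very limit. Of 59 marked DNA repair genes there were 2, or 3.39% (0.935 to 11.5). These were Ercc2, a helicase of TFIIH, with a peak of 779 bp centred 381 bp into the gene, and Rad51d, a protein of recombination repair, with a peak of 551 bp at 360 bp.

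Other groups held a few members each. Among 37 aminoacyl-tRNA synthetase genes it was Nars2, the mitochondrial asparaginyl enzyme (731 bp wide, 375 bp into the gene). Among 45 subunit genes of respiratory complexes I and IV it was Ndufa8 (923 bp, 503 bp in), and among 43 proteasome genes Psmd6, a subunit of the regulatory lid (946 bp, 464 bp in), and the assembly chaperone Psmg3 (958 bp, 401 bp in). RNA polymerase III and exosome genes gave 2 of 19, among them Polr3f (648 bp, 231 bp in). Mitochondrial ribosomal protein genes gave 7 of 77 (9.09%, 4.47 to 17.6). In all 7 (Mrpl3, Mrpl22, Mrps17, Mrps22, Mrpl16, Mrps33 and Mrpl44) the midpoint was downstream of the TSS, by 305 bp in Mrpl3 up to 481 bp in Mrpl44. Of all narrow promoter peaks 87.5% had a downstream midpoint. The DEAD and DEAH box helicases gave 5 of 47 (10.6%): Ddx43, Dhx16, Dhx33, Dhx40 and Ddx52, with midpoints 285 to 410 bp into the gene.

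Narrow peaks alone marked a larger share of some other families. Among Hox genes, which set position along the body axis, 5 of 15 marked promoters were of this kind (33.3%, 15.2 to 58.3): Hoxc8 and Hoxd8, whose peaks were 486 and 466 bp wide, Hoxd13, Hoxc10 and Hoxd9. Of all 39 Hox promoters 38.5% were marked by any peak, near the 43.4% of all autosomal promoters. Zfp zinc finger genes gave 44 of 300 (14.7%, 11.1 to 19). The nearest to their TSS were Zfp934 (-6 bp), Zfp101 (61 bp), Zfp108 (-62 bp), Zfp316 (76 bp) and Zfp580 (80 bp). Tmem genes, a naming group of membrane proteins rather than a family, gave 26 of 143 (18.2%, 12.7 to 25.3), led by Tmem237 (-64 bp), a ciliary protein, Tmem229a (170 bp), Tmem242 (183 bp), Tmem128 (211 bp) and Tmem178 (211 bp). For the Zfp, Tmem and Hox groups the interval lay above 10.7%, the closest being Zfp, with a lower bound of 11.1%. The intervals treat promoters as separate draws, but Zfp934 and Zfp935 shared a peak, as did Zfp617 and Zfp882. The shares were not adjusted for chromosome, and 24 lists were read.

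The remaining lists sat nearer the background or were too small to read. Solute carriers gave 16 of 173 (9.25%, 5.77 to 14.5), the nearest being Slc23a4 (193 bp), Slc4a3 (194 bp), Slc36a1 (254 bp), Slc1a3 (270 bp) and Slc16a10 (280 bp). Germline genes gave 2 of 8, Piwil2, a PIWI protein of the piRNA pathway (663 bp wide, 81 bp into the gene), and Stk31 (630 bp, 220 bp in). Developmental factors gave 1 of 7, the homeobox gene Msx2 (610 bp, 631 bp in). Unnamed Rik transcripts gave 47 of 439 (10.7%), the nearest to their TSS being 4931422A03Rik (48 bp), 5730455P16Rik (61 bp), 9430037G07Rik (-79 bp), 9330136K24Rik (80 bp) and 6720489N17Rik (90 bp). Predicted Gm genes gave 66 of 697 (9.47%), led by Gm31816 (-9 bp), Gm49735 (18 bp), Gm5 (-20 bp), Gm26876 (-38 bp) and Gm17509 (-41 bp). Narrow peaks alone marked 0 of 4 small nucleolar RNA host genes, and of olfactory receptor and keratin genes only 1 promoter each was marked, both by a wider peak.

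GC content was taken in 300 bp around each midpoint, so that narrow and wider peaks were measured over equal lengths. Narrow peaks had a median of 54.7% (54.3 to 55.0, quartiles 49.0 and 64.0), where the autosomal genome had 41.9%. Wider peaks had 50%, a difference of 4.67 points (4.33 to 5.00), and the sign was the same on 19 of 19 chromosomes. Against peaks of 1000 to 1999 bp, at 54.3%, the difference was 0.33 points with an interval (-0.14 to 0.80) that included 0, and narrow peaks were higher on 12 of 19 chromosomes. The median CpG density was 2.67 per 100 bp in narrow peaks, 1.67 in all wider peaks and 2.67 in the next wider set. Against all wider peaks the difference was 0.33 within promoters (-0.14 to 0.80) and 0.67 outside them. In 92 narrow peaks (2.89%) the 300 bp held no CpG, against 3.91% of the next wider set and 5.71% of all wider peaks.

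The comparison with the next wider set was repeated within each class. Promoter midpoints had a median GC content of 65.3% in both sets (difference 0, -0.75 to 0.75), while their CpG density was 7.67 per 100 bp in narrow peaks against 8.33 (difference -0.67, -1.14 to -0.33). In gene bodies narrow peaks had 52.7% against 50.3% (difference 2.33 points, 1.59 to 2.80), and between genes 51.0% against 49.0% (difference 2.00 points, 1.25 to 2.47). The CpG density was 1.67 per 100 bp in narrow peaks against 1.33 both in gene bodies (difference 0.33, 0.33 to 0.67) and between genes (difference 0.33, 0 to 0.33). The profiles along 4 kb show where the GC-rich sequence sat. Turned along the gene, narrow promoter peaks had their highest median, 68.0%, in the 100 bp bin centred 150 bp before the midpoint, toward the TSS, and were lopsided: 59.0% at 450 bp before the midpoint but 50% at 450 bp after it. Promoter peaks of 1000 to 1999 bp were symmetric, with 54.0% at both distances. Outside promoters the maximum was 52% in narrow peaks and 50% in the next wider set, with 46% and 45% at 950 bp from the midpoint.

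**Figure D4:**
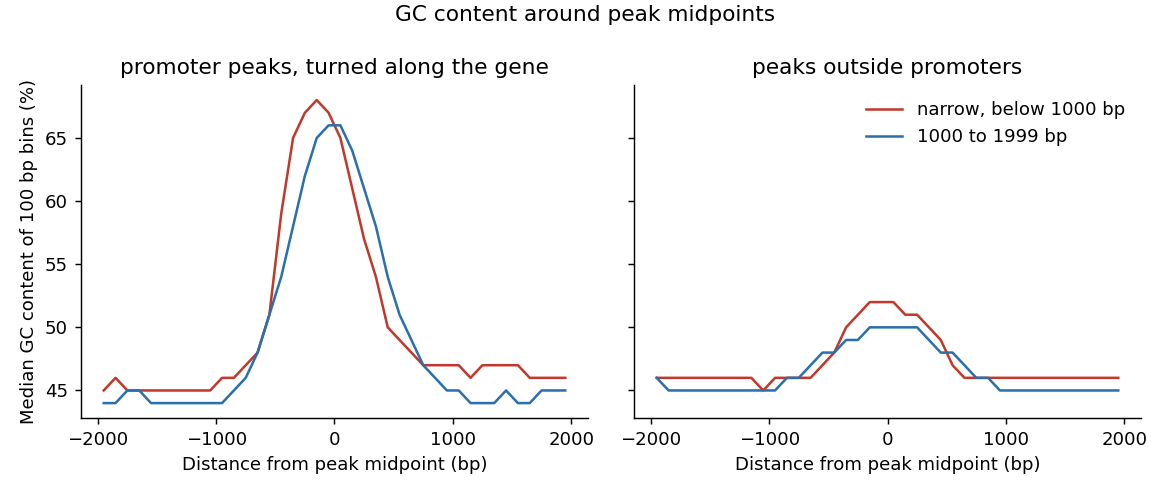
Median GC content (y axis, %) of 100 bp bins against the distance from the peak midpoint (x axis, bp) for narrow peaks and peaks of 1000 to 1999 bp, with promoter peaks turned so that the gene runs to the right. In promoters the narrow-peak maximum of 68.0% lay 150 bp before the midpoint, and outside promoters narrow peaks reached 52% against 50%.

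Beyond the extremes shown above, the next highest GC contents belonged to the promoter peaks of Begain (84.3%), which encodes a protein of synaptic junctions, and Dscam (84.0%), an adhesion molecule of neurons. Among the lowest was an intronic peak of Cpsf6 (30.7%), a gene of pre-mRNA cleavage and polyadenylation. Repeat-masked sequence made up a median of 7.33% of the 300 bp in narrow peaks, 7.67% in the next wider set and 11% in all wider peaks. Most of the window was masked in 7.47% of narrow peaks (6.61 to 8.44), 9.06% of the next wider set (8.45 to 9.72) and 14.0% of wider peaks (13.6 to 14.5).

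Short sequence patterns were searched on both strands of the same 300 bp. No pattern lies within another, and a match is a description of letters, not of a bound factor. The GC box GGGCGG of the SP and KLF factors was found in 54.8% of narrow promoter peaks (51.8 to 57.7) and 61.7% of promoter peaks of 1000 to 1999 bp (60.1 to 63.3). It was found in 36.0% of 31396 RefSeq promoter windows of equal length (250 bases before to 50 after the TSS, assembly GRCm38.p6). The ETS site CCGGAAG was found in 7.96% (6.50 to 9.70) against 17.5% (16.2 to 18.8), with 9% of RefSeq windows, and the YY1 site AAGATGGCG in 0.633% (0.307 to 1.30) against 2.77% (2.27 to 3.37), with 1.39%. CCAAT, the box of NF-Y, was found in 18.7% (16.5 to 21.1) against 24.8% (23.3 to 26.2), with 37.3%. The CRE palindrome TGACGTCA was found in 0.723% (0.367 to 1.42) against 2.27% (1.82 to 2.83), with 1.83%. The E-box CACGTG (5.52% against 7.60%), the ZNF143 site ACTACAA (1.36% against 2.56%), the TATA box TATAAAA (1.18% against 1.05%) and the CTCF core AGGGGGC (11% against 11.8%) had RefSeq shares of 7.14%, 3.32%, 5.49% and 10.7%. Their intervals in narrow and next wider promoter peaks overlapped. The AP-1 site TGANTCA (4.07% against 3.23%), the POU octamer ATGCAAAT (0.542% against 0.874%), the SOX site CATTGT (4.97% against 4.95%) and the ESRRB site TCAAGGTCA (0.271% against 0.612%) had overlapping intervals in promoter peaks. The window is centred on the peak and thus lay farther from the TSS in narrow peaks, as the offsets above show.

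Outside promoters, 3 of the 13 patterns had intervals that did not overlap, all lower in narrow peaks. The POU octamer ATGCAAAT was found in 1.63% (1.17 to 2.28) of narrow peaks against 3.13% (2.66 to 3.68) of the next wider set, and the SOX site CATTGT in 11.6% (10.3 to 13.0) against 16.3% (15.2 to 17.4). The ZNF143 site ACTACAA was found in 1.83% (1.33 to 2.50) against 3.16% (2.68 to 3.71). The AP-1 site TGANTCA was found in 8.65% (7.52 to 9.94) against 10.4% (9.54 to 11.3), and the ESRRB site TCAAGGTCA in 1.39% (0.972 to 2.00) against 2.20% (1.81 to 2.67), both with overlapping intervals. The GC box did not differ beyond counting error there, at 16.5% (15.0 to 18.1) and 16.6% (15.6 to 17.8). Narrow peaks outside promoters also had the higher GC content given above, and its part in these shares was not tested. Among RefSeq promoter windows the octamer was found in 1.75%, the SOX site in 12.2%, the AP-1 site in 7.84% and the ESRRB site in 0.417%.

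Narrow peaks lay farther from other peaks than wider ones did. Peaks within 2 kb had been merged, so short peaks with a close neighbour entered the list as wider ones. The gap is therefore not independent of the width rule, and the size of this effect was not tested. The median gap to the nearest peak, edge to edge, was 17003 bp (15842 to 18237) against 11908.5 bp for wider peaks, a difference of 5094.5 bp (3878 to 6370) with the same sign on 19 of 19 chromosomes. Between midpoints in place of edges the difference was 2252 bp (1039 to 3330). Against peaks of 1000 to 1999 bp the gap was 1283 bp longer with an interval of -51 to 2641 bp, and longer on 15 of 19 chromosomes. By class the narrow minus next difference was 3928 bp in promoters (1628 to 6384), 328 bp in gene bodies (-916 to 2003) and 1583 bp between genes (-619 to 3977). The share with no other peak within 100 kb was 11.3% (10.2 to 12.4) in narrow peaks, 9.52% in the next wider set and 7.40% in wider peaks.

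The members farthest from any other peak were intergenic, intronic or at a promoter. The nearest peak was 2257 kb away for an intergenic member 104 kb upstream of Cntn6, which encodes a neuronal contactin. It was 1573 kb away for an intronic member of Lsamp, a neuronal adhesion gene. Others were at the promoter of the predicted gene Gm3248 (1839 kb) and in an intergenic stretch 272 kb upstream of the lincRNA gene Gm13470, the nearest annotated TSS (1598 kb).

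The nearest neighbour of a narrow peak was narrow more often than that of a wider peak. The nearest peak was itself narrow for 19.6% of narrow peaks (18.2 to 21), 14.1% of peaks of 1000 to 1999 bp (13.3 to 14.9) and 11.9% of wider peaks (11.5 to 12.4), where narrow peaks made up 14.1% of the list. The narrow share of a peak's own chromosome, averaged over narrow peaks, was 16.4%, against 13.8% over wider peaks. This average is higher over narrow peaks wherever shares differ between chromosomes. It is thus a baseline for the neighbour shares and not a separate result. Runs were nonetheless short. Counting narrow peaks that followed each other with gaps below 10 kb, 2947 stood alone, 111 runs held 2 peaks, 3 runs held 3 and 2 runs held 4. A run of 4 spanned the intergenic stretch from Mfsd11 to Mgat5b on chromosome 11, with widths of 420, 433, 767 and 159 bp. The other began at the promoter of Scarf2, a scavenger receptor gene on chromosome 16, with a peak of 452 bp, followed by a peak of 353 bp in its intron 7, one of 675 bp in its exon 11 and an intergenic one of 714 bp, with B830017H08Rik as the nearest gene. The runs of 3 lay at Nrros and Bex6, at Pigt and at Zfp790, a zinc finger gene. In Pigt the members were the promoter peak of 985 bp shown above, a peak of 568 bp in intron 11 and a peak of 396 bp past the gene end.

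The median distance of a narrow peak to the nearest TSS was 8607 bp (7835 to 9670), against 8016 bp for all wider peaks, a difference of 591 bp with an interval of -249 to 1717 bp. It was 2924 bp longer (1894 to 4189) than in peaks of 1000 to 1999 bp. A TSS lay within 10 kb of 52.4% of narrow peaks, 57.0% of the next wider set and 53.4% of all wider peaks. Over 100 kb from any TSS lay 7.63% of narrow peaks, 7.64% of the next wider set and 7.46% of all wider peaks. The farthest, in intron 47 of Lrp1b, which encodes a large receptor of the LDL receptor family, was 1684 kb away. Next came members 1073 kb downstream of the TSS of Agbl1, 831 kb downstream of the lincRNA gene 4930405D01Rik (a peak of 96 bp), 786 kb upstream of Vwc2, which encodes a secreted BMP antagonist, and in intron 2 of Opcml, an adhesion gene of neurons (761 kb).

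Of the 1149 gene body members 980 lay in an intron of the longest isoform and 153 in an exon. The exon share was 13.3% (11.5 to 15.4), against 9.80% (8.70 to 11) in peaks of 1000 to 1999 bp and 8.08% in all wider peaks. The difference from the next wider set was 3.52 points (1.30 to 5.88). Intron 1 held 31.7% of the intronic narrow peaks (28.9 to 34.7), 33.5% of the next wider set and 41.9% of all wider peaks. The narrow member in intron 1 of Myo15, which encodes a myosin of sensory hair cells, measured 60 bp.

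Most genes with a narrow peak in the body had just 1: 904 genes held 1, 81 held 2 and 19 held 3 or more. Fgfr2, a fibroblast growth factor receptor gene, and Msi2, an RNA-binding protein gene of stem and progenitor cells, held 6 each. In Fgfr2 they were 323 to 827 bp wide, within an annotated span of 2961 kb that also held 45 wider peaks. Whether other genes lie within that span, and hold any of these peaks, was not examined. In Msi2 they were 286 to 797 bp wide among 16 wider peaks over 379 kb. Lpp, Plekha7, Slc12a8 and Slit3 held 4 each. Atp5o, Clmp, Cmss1, Cntnap2, Iqcg, Osbpl10, Prdm16, Ptprk, Rbfox1, Sh3pxd2a, Slc39a11, Tenm4 and Tiam1 held 3 each. Of the pair of genes annotated as Atp5o, the one holding them spanned 243 kb (chr16:91684398-91926982). All but 2 of these peaks were intronic, the exceptions being an exonic peak each in Ptprk and Tiam1. Iqcg carried its 3 narrow peaks with no wider peak in the gene.

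Narrow peaks were spread unevenly over the chromosomes. Their share of a chromosome's peaks ran from 4.99% on chromosome 3 (3.81 to 6.50, 51 of 1023) through 21.8% on chromosome 16 (19.4 to 24.4, 224 of 1028) to 26.3% on chromosome 11 (24.3 to 28.4, 453 of 1722). Chromosomes 14 (6%) and 12 (7.37%) also had low shares, while 17, 19 and 9 lay at 18.9%, 18.8% and 18.2%. Chromosomes 17, 19 and 9 did not differ from each other beyond counting error. Across the 19 chromosomes the share rose with the number of peaks per Mb (Spearman's rho 0.951) and less closely with genes per Mb (rho 0.684). The list gives no reads per chromosome, so the shares are not adjusted for the copy number of each chromosome in these cells, and its part in them was not tested. These are descriptions without a test, since the share and the density count the same peaks of the same libraries.

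Chromosomes with many narrow peaks also had shorter ones. The median narrow width ran from 816 bp on chromosome 14 down to 500 bp on chromosome 11 and 460.5 bp on chromosome 16, and its rho with the narrow share was -0.954. Share and median both come from the widths that chose the members, so they can move together by construction. Chromosomes 11 and 16 together held 677 narrow peaks (21.2%) where they held 12.2% of all autosomal peaks, and they held 68 of the 122 peaks below 200 bp (55.7%). On chromosome 16 only 18.8% of narrow peaks were in promoters, against 35.5% on chromosome 11 and 43.1% on chromosome 12. Without chromosomes 11 and 16 the promoter share of narrow peaks was 36.0%, the median promoter offset 322 bp, and the gap difference from wider peaks 6542 bp.

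**Figure D5:**
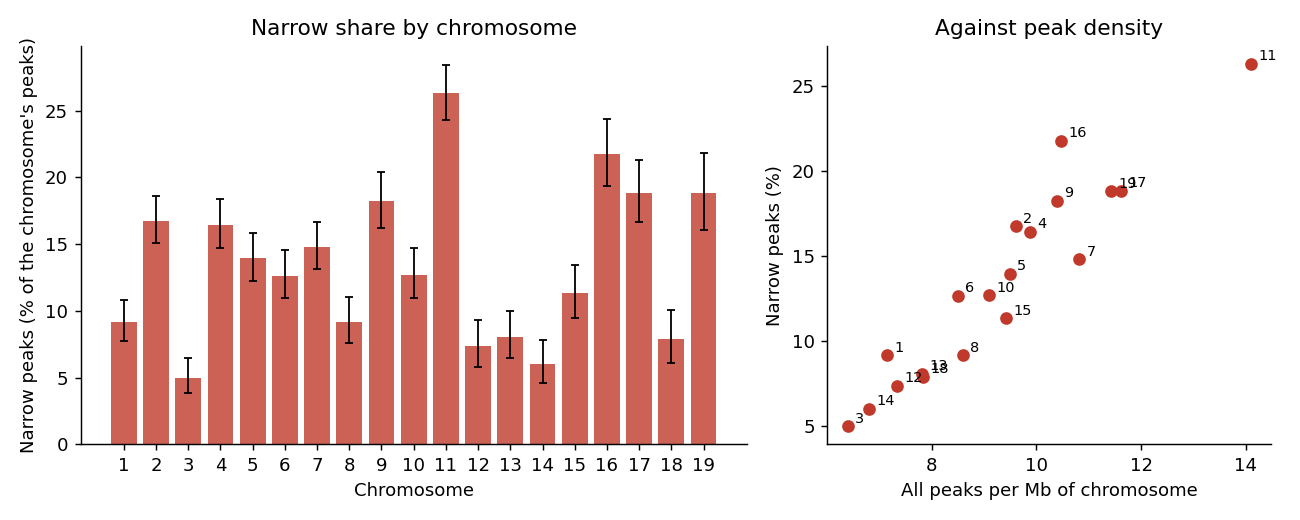
Left, narrow peaks as a share of each chromosome's peaks (y axis, %) for chromosomes 1 to 19 (x axis), with 95% Wilson intervals. Right, the same share against all peaks per Mb (x axis), 1 point per chromosome: chromosome 11 stood highest at 26.3% and chromosome 3 lowest at 4.99%.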

How the data were processed

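H3K27ac ChIP-seq was done in 6 samples of E14Tg2A mouse ESCs, 2 per condition. The authors trimmed reads with Cutadapt, aligned them with BWA to mm10 joined to a human genome for the spike-in, removed duplicates with Picard 2.9.1 and low mapping qualities with SAMtools 1.4, and called peaks with LanceOtron. They merged peaks within 2 kb, and dropped those of low height and those over 400 bp from an ATAC-seq summit or with a summit over 1 kb from one. Merging sets the smallest gap. The effect of the height filter on the number of narrow peaks was not tested. The deposited list holds positions in base pairs, other values being absent: no score, read count or depth per peak. The methods give unequal sequencing depths for the pooled libraries, and the part of each in a peak cannot be read from the list. It pools control replicates 1 and 2, and only these 2 samples enter.

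Peaks on chromosomes 1 to 19 were placed against GENCODE M21 (25930 autosomal protein-coding and lincRNA genes, longest isoform) and the GRCm38.p6 sequence with Python 3.11.15, numpy 2.4.6, pandas 2.3.3 and scipy 1.17.1. GC content, CpG and 13 sequence patterns were read in 300 bp around the midpoint. Shares have Wilson intervals, medians exact order-statistic intervals, and differences intervals combined from both (square-and-add). The functions were tested on simulated data. No test was run, since there is 1 list. Members, the 24 gene lists and the comparisons were chosen with earlier results of these data known. Genes were named by rule: listed genes marked by narrow peaks alone (the nearest 5 where a list gave more than 10), and the extremes of TSS distance, width, GC content, gap, list position, runs and number per gene. Some items that these rules would name are not reported here.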

Additional observations from a re-analysis of the deposited data

How the results depend on the processing

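No paired analysis was possible because the peak list pools both control replicates and gives no value per replicate. For the same reason no replicate could be left out, and a stricter score was not run since the list gives none. Of 88 alternative values (72 planned, 16 chosen after seeing the data), 41 stayed within the interval of the reported value, 42 moved outside it and 5 changed sign. The causes were not tested. Whether treated cells keep these peaks cannot be read from the list.

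The promoter share of narrow minus wider peaks, 4.59 points, changed sign with promoter windows of 2 kb (-0.114), with any overlap (-7.83), with narrow taken as below 750 bp (-0.0737) or below 500 bp (-7.92), and against peaks of 1000 to 2000 bp (-8.56). With windows of 500 bp it was 8.41.

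The promoter share of narrow peaks, 34.7%, was 31.2% with windows of 500 bp, 36.6% with 2 kb, 39.8% with every isoform, 30.7% below 750 bp and 23.2% below 500 bp. The gene body share, 36.1%, was 39.2% with windows of 500 bp, 31.1% with every isoform, 34.0% with protein-coding genes only and 41.9% below 500 bp. The intergenic share, 29.2%, was 32.7% with protein-coding genes only, 32.0% below 750 bp and 34.9% below 500 bp. The median TSS distance was 5870 bp with every isoform, 10942 bp with protein-coding genes only, 10328 bp below 750 bp and 13068 bp below 500 bp.

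The GC difference from wider peaks, 4.67 points, was 3.20 over 1 kb, 4.00 below 750 bp, 2.33 below 500 bp, 0.33 against peaks of 1000 to 2000 bp, 2.33 in promoters and 4.00 outside them. The CpG difference, 1.00 per 100 bp, was 0.949 over the whole peak, 0.80 over 1 kb, 0.33 below 500 bp, 0 against peaks of 1000 to 2000 bp, 0.33 in promoters and 0.67 outside. The gap difference, 5094.5 bp, was 2252 bp between midpoints, 9965 bp to the downstream neighbour, 1283 bp against peaks of 1000 to 2000 bp, 6992 bp in promoters, 3762 bp outside and 6542 bp without chromosomes 11 and 16.

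Promoters marked by narrow peaks alone, 10.7%, were 5.80% where the TSS itself had to lie in the peak, 5.96% below 750 bp, 2.15% below 500 bp and 9.99% without chromosomes 11 and 16. The median promoter offset, 316.5 bp, was 268 bp below 500 bp, 301.5 bp below 750 bp and 260 bp with every isoform.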

Other observations

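The list is not in genomic order, and the sources used here do not say what its order means. Narrow peaks made up 0.121% of autosomal peaks in lines 1 to 5000 (6 of 4955), 1.69% in lines 5001 to 10000, 8.30% in lines 10001 to 15000, 25.3% in lines 15001 to 20000 and 50.2% (48.4 to 52.0) from line 20001 on. The promoter share of the narrow peaks themselves fell with list position, from 68.7% of 83 in lines 5001 to 10000 through 62.1% and 37.9% to 22.5% of 1451 from line 20001 on.

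None of the 6 narrow peaks in the opening 5000 lines was in a promoter. The earliest 5 were an intronic peak of Kctd16 (line 4, 834 bp), whose product is an auxiliary subunit of GABA-B receptors, an intergenic peak near Gm20546 (line 1514), one near Fam174a (line 3550), one near Cr2 (line 3882), which encodes a complement receptor, and an intronic peak of Gm26804 (line 4406). Their GC content ran from 32.0% in the Fam174a window, 78.7% of which was repeat-masked, to 72.0% in the Gm20546 window.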
